A study of Mus musculus with 12 samples.

Results

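Cultures of neurons made from mouse embryonic stem (ES) cells and treated late with a WNT agonist were set against cultures that received only inhibitors. The agonist arm held 4 arrays, those titled Chir_8-16 and Chir_11-16, and the inhibitor-only arm 4 arrays, those titled Wibi_0-11 and Wibi_0-16, so that 8 of the 12 arrays of the study were used. Every culture came from male ES cells of the 129/Ola background and was collected after 16 days in vitro. All 4 groups began at day 0 with the WNT inhibitor 53AH at 2.5 µM together with LDN193189, which blocks BMP receptors, at 0.25 µM. WiBi_0-11 had both inhibitors up to day 11 and WiBi_0-16 up to day 16. In CHIR_8-16 they were replaced at day 8 by CHIR, an inhibitor of the kinase GSK3 that activates WNT signalling, at 3 µM until day 16. In CHIR_11-16 the replacement came at day 11, and the labels give no dose for it. No group was left without the inhibitors, so the comparison is between cultures released into agonist and cultures held in inhibitor or released into plain medium. Each sample pooled RNA from 3 sets of experiments, and nothing in the labels says that replicates came from separate cultures, so the p-values rest on a spread between samples that may be purely technical. The other 4 arrays held cortex, hippocampus, ventral telencephalon and midbrain of embryonic day 15 (E15), 1 array each.

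In canonical WNT signalling, ligands that bind Frizzled receptors and LRP co-receptors stop GSK3 from marking beta-catenin for destruction. Beta-catenin then joins TCF and LEF proteins on DNA and switches on target genes, several of which, such as Axin2, Nkd1 and Rnf43, dampen the pathway in turn. In the embryonic forebrain WNT ligands are made at the dorsal midline, next to the future hippocampus, and WNT activity also favours dorsal over ventral and posterior over anterior fates.

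Levels are log2 signals relative to the 75th percentile of the array, which is 0 on this scale, so that 1 unit is a 2-fold difference. Between 59.06% and 71.18% of spots were well above background. The first replicates were all hybridised on slide 2 and the second ones on slide 3. Between them 7635 of 25538 genes differed (limma, Benjamini-Hochberg adjusted p below 0.05), so slide was a term in the fit. Markers of the labelled cell type were present. All 10 neuronal markers were well above background on all 8 arrays, as were Emx1, Emx2 and Lhx2 of the telencephalon. Pou5f1 and Zfp42 of stem cells, Cdh5 of endothelium and Sox17 of endoderm had no probe that passed the filter. Other markers of such classes did pass. Nanog of stem cells, Pecam1 and Csf1r of endothelium and microglia and all 6 mesenchyme markers were well above background on all 8 arrays. Epcam, Cdh1 and Krt8 of epithelium were so on some arrays.

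WNT target genes were among the largest rises, and the promoters of a pair of them, Sp5 and Tnfrsf19, are shown because they hold the letters bound by TCF and LEF proteins. The letters searched were CTTTGAT, the form that TCF and LEF proteins prefer, and ATCAAAG, which is the same motif on the opposite strand. Windows were the 250 bases before each RefSeq start (GRCm38.p6), read 5′ to 3′ along the gene, with matches in capitals. Of 14 members of the WNT target list with such a window 2 held a match, Sp5 and Tnfrsf19, the latter at 1 of 2 starts.
Sp5, chr2:70474673-70474922, plus strand: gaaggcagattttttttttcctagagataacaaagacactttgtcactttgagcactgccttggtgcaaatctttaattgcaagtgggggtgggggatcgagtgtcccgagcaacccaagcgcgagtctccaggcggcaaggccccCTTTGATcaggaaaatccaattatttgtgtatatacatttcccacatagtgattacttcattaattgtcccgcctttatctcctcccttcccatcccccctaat
Tnfrsf19, chr14:61037988-61038237, minus strand: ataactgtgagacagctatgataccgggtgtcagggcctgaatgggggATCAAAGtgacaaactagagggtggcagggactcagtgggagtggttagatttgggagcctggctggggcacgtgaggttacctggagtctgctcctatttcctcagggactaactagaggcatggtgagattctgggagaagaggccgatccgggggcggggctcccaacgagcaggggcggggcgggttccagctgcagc
The match of Sp5 began 104 bases before the start and that of Tnfrsf19 202 bases before it. Of all 27025 genes with such a window 3.72% held a match, and of the 13055 that were also tested on the arrays 2.95%. Of the genes that rose and have a window, 10 of 235 did (4.26%), and of those that fell, 7 of 253 (2.77%). These shares were not tested, and a match is a description of letters, not of binding.

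Across the genome the agonist cultures differed from the inhibitor-only cultures in 869 of 25538 genes tested (3.4%). Expression of 505 genes rose (1.98% of those tested) and that of 364 fell (1.43%), at a Benjamini-Hochberg adjusted p below 0.05 in limma with slide as a term (4 against 4 arrays). The median log2 difference was 0.84 among genes that rose and -0.72 among those that fell, against 0.00 over all genes. As measured, differences of 2-fold or more were found in 160 genes that rose and 71 that fell, and of 4-fold or more in 28 and 7. These counts take signals near background at face value. In 34 genes that rose no inhibitor-only array was well above background, and in 4 that fell no agonist array was. The fold of such genes is only bounded, and the bound can be under 4-fold (Agtr2, at least 3.1-fold). Of the 869 genes 591 carry an ordinary gene symbol, the rest being predicted genes, clones and unnamed transcripts.

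The arms could also be compared without a fit, by asking whether both agonist arrays of a slide lay on the same side of both inhibitor-only arrays of that slide, on both slides. This held for 3133 genes with the agonist arrays higher (12.3%) and for 2689 with them lower (10.5%), and all 869 called genes were among them. Over all 8 arrays regardless of slide, 450 of the 505 genes that rose and 313 of the 364 that fell had arms that did not overlap, where 6.72% and 5.57% of all genes did so. Genes were called on these same arrays, so nothing is read from these counts. A test for a different agonist effect on the slides (an interaction of arm and slide in limma) called 0 genes, with 559 at an unadjusted p below 0.05.

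The calls need all 8 arrays and the slide term. Without slide in the fit 2 genes passed, and leaving out an array left 3 calls without CHIR_8-16 replicate 2, 2 without CHIR_11-16 replicate 2, 1 without WiBi_0-16 replicate 1 and 0 without each of the other 5. The adjusted p of the 869 genes lay between 0.0333 and 0.05, and each of them kept its direction and an unadjusted p below 0.05 in all 8 of these fits. Their arms were apart on both slides, so leaving out an array could not turn a direction. The size of a difference in a dim gene depends on how background is treated. Under normexp correction with quantile normalization 31 of the 66 named genes that were called had a log2 difference more than 1.5 times smaller, among them Foxb1 (1.88 in place of 4.21), Olig3 (2.37 in place of 3.98), Npy (-2.03 in place of -3.57) and Gpr17 (-1.48 in place of -3.44), and all 66 kept their direction under every scaling. Where a gene was well above background on some but not all arrays of its dim arm, its fold is also given with the other arrays of that arm raised to their floor, the lowest signal called well above background on each, a setting chosen after the data were seen.

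**Figure D1:**
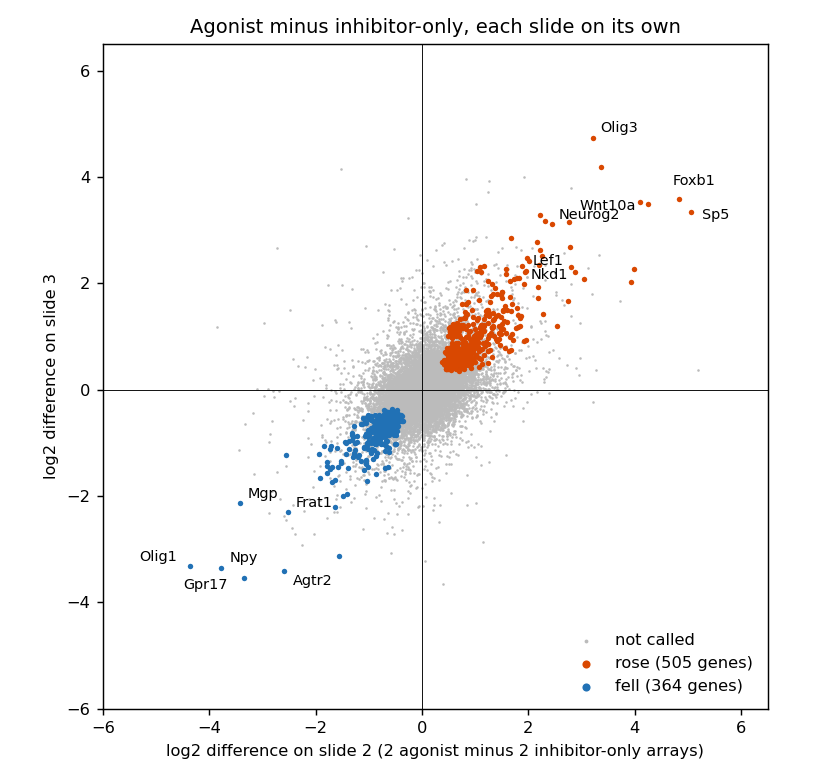
Log2 difference between agonist and inhibitor-only arrays on slide 2 (horizontal) and slide 3 (vertical), 2 against 2 arrays on each; every point is a gene, orange for the 505 that rose, blue for the 364 that fell and grey for the rest. Called genes lie at the upper right and lower left, with Sp5, Foxb1, Olig3 and Wnt10a at the top and Olig1, Npy and Gpr17 at the bottom.

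Targets of WNT/beta-catenin signalling were among the genes that rose. Counts of called members, here and in every list below, are to be set beside 1.98% of all genes that rose and 1.43% that fell. A list with 1 called member is not read as a result about its family. All lists were drawn up with earlier results of these data known, so their counts are a description and not independent support. Of 20 measured list members 6 rose and 0 fell, while 13 were higher and 7 lower with agonist, under each of 5 ways of scaling. The median log2 difference was 0.62 and lay between 0.13 and 0.62 over these scalings. It was 0.72 on slide 2 and 0.39 on slide 3, and came to 0.28 against WiBi_0-11 alone. The 6 that rose were Sp5, Tnfrsf19, Lef1, Nkd1, Rnf43 and Ccnd1.

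Sp5 encodes a zinc finger transcription factor that acts downstream of beta-catenin. Its level was 0.11 and 0.65 in CHIR_8-16, 0.72 and 0.26 in CHIR_11-16, -3.66 and -1.62 in WiBi_0-11 and -5.63 and -4.15 in WiBi_0-16, slide 2 first. The agonist arrays sat close together, while the inhibitor-only arrays were spread over several log2 units, lowest where the inhibitors had stayed to the end. Sp5 was 18.3-fold higher with agonist (log2 4.20, SE 0.69, limma adjusted p = 0.040). Its probe lies at mm9 chr2:70315688-70315747.

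Tnfrsf19, a receptor of the TNF family found on progenitors, was at 3.46 and 2.43 in CHIR_8-16, 2.40 and 1.90 in CHIR_11-16, 0.40 and 0.66 in WiBi_0-11 and -0.04 and 0.35 in WiBi_0-16. The arms did not overlap, and the difference was 4.61-fold (log2 2.21, SE 0.32, limma adjusted p = 0.038). Lef1, a partner of beta-catenin on DNA and itself a target, was at 4.22 and 3.36 in CHIR_8-16, 2.78 and 1.79 in CHIR_11-16, 1.24 and 0.40 in WiBi_0-11 and 1.88 and 0.28 in WiBi_0-16. Its arms were apart on each slide, but WiBi_0-16 on slide 2 lay above CHIR_11-16 on slide 3. The difference was 4.26-fold (log2 2.09, SE 0.42, limma adjusted p = 0.048), and a second Lef1 probe gave a log2 difference of 3.01.

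Nkd1, which restrains the pathway through Dishevelled, was at 1.82 and 2.35 in CHIR_8-16, 1.5 and 1.31 in CHIR_11-16, -0.04 and 0.11 in WiBi_0-11 and -0.45 and -0.44 in WiBi_0-16. It was 3.86-fold higher with agonist (log2 1.95, SE 0.25, limma adjusted p = 0.037), and by its other probe the log2 difference was 1.42. Rnf43, a ubiquitin ligase that removes Frizzled receptors, rose 2.05-fold (log2 1.03, SE 0.21, limma adjusted p = 0.049), and Ccnd1, the G1 cyclin, named here after its value was seen, rose by a log2 of 1.32 (SE 0.23, limma adjusted p = 0.044).

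Axin2, the scaffold whose transcript is widely used as a readout of the pathway, did not pass. Its level was -0.59 and 0.70 in CHIR_8-16, -0.38 and -0.55 in CHIR_11-16, -1.34 and -1.10 in WiBi_0-11 and -1.35 and -0.84 in WiBi_0-16. All 4 agonist arrays were above all 4 inhibitor-only arrays, with CHIR_8-16 on slide 3 far above the other 3 (log2 difference 0.95, SE 0.26, limma adjusted p = 0.080). Tcf7, a TCF factor, was not well above background on any inhibitor-only array and was at least 2.64-fold higher with agonist, at an adjusted p of 0.062.

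**Figure D2:**
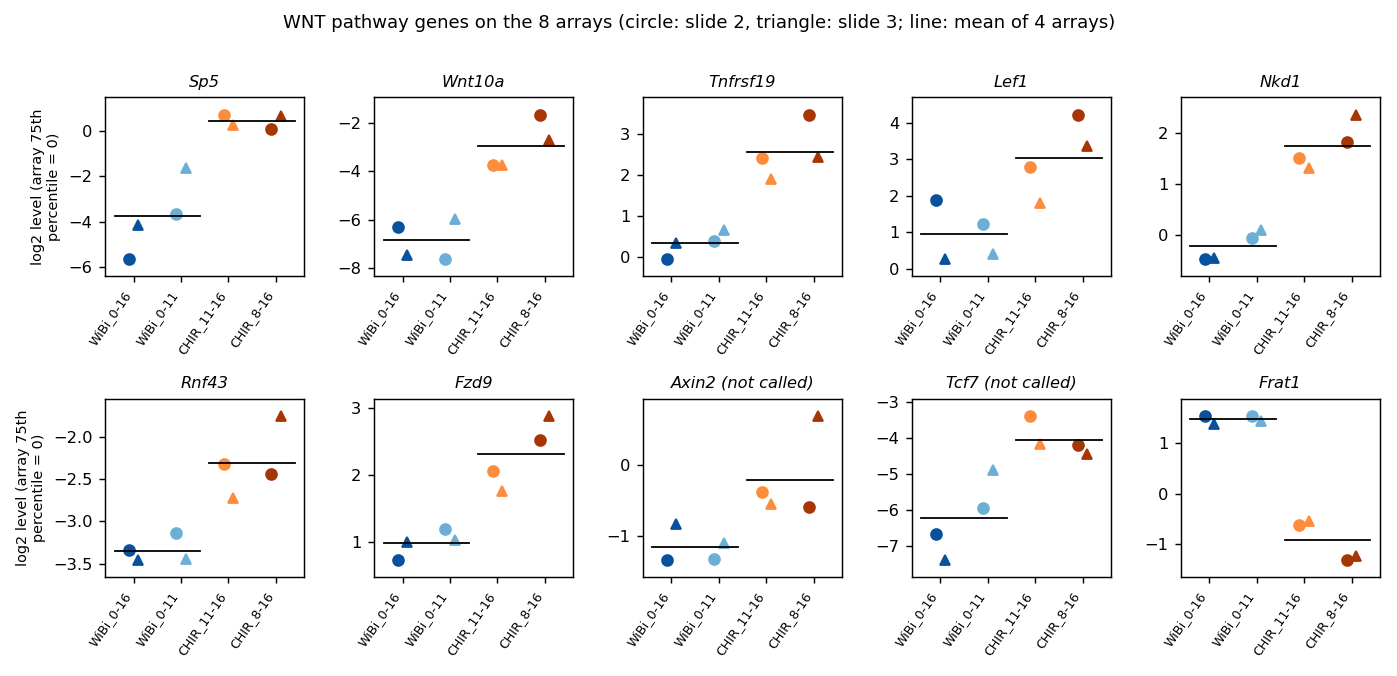
Log2 level (0 is the 75th percentile of the array) of 10 WNT pathway genes in the 4 culture groups; circles are slide 2, triangles slide 3 and lines the mean of the 4 arrays of an arm. Sp5, Wnt10a, Tnfrsf19, Nkd1, Rnf43 and Fzd9 are higher on every agonist array than on any inhibitor-only array, and Frat1 is lower on every agonist array; Axin2 and Tcf7 separate but did not pass the test.

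The genes whose levels followed Axin2 most closely over the 8 arrays, after the slide means were removed, were Pou4f1 (Pearson r = 0.985), Chn2 (0.983), Drp2 (0.981), Rnf43 (0.976) and Prph (0.975). The 8 arrays share slides and groups, and 1 array, CHIR_8-16 on slide 3, was far above the rest for Axin2, so these values are a description. Pou4f1, a POU factor of sensory and habenular neurons, showed the same high array (1.93, against -0.12 to 0.19 on the other 3 agonist arrays), and of these 5 only Rnf43 passed the agonist comparison. A second probe of Chn2 gave a log2 difference of -0.02.

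Among WNT ligands 1 of 14 measured rose and 0 fell, where 1.98% and 1.43% of all genes did. Wnt10a was at -1.66 and -2.69 in CHIR_8-16, -3.72 and -3.75 in CHIR_11-16, -7.60 and -5.97 in WiBi_0-11 and -6.28 and -7.44 in WiBi_0-16. It was well above background on all 4 agonist arrays and on 0 of 4 inhibitor-only arrays, and was at least 5.61-fold higher with agonist (limma adjusted p = 0.038). A lower bound ("at least") sets the mean of the bright arm against the lowest signal called well above background on the dim arrays, or the probe's own signal where that is higher.

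Of 16 measured WNT receptors Fzd9, a Frizzled receptor prominent in the developing hippocampus, was the gene that rose, at 2.53 and 2.88 in CHIR_8-16, 2.06 and 1.76 in CHIR_11-16, 1.20 and 1.03 in WiBi_0-11 and 0.73 and 0.99 in WiBi_0-16. The arms did not overlap (2.49-fold, log2 1.32, SE 0.25, limma adjusted p = 0.046). Of 15 secreted antagonists and R-spondins 1 rose, Sfrp4, a Frizzled-related protein that binds ligands (log2 1.13, SE 0.19, limma adjusted p = 0.040).

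Of 20 intracellular pathway genes 0 rose and 1 fell, where 1.98% and 1.43% of all genes did. Frat1, which binds GSK3 and favours beta-catenin, was at -1.32 and -1.24 in CHIR_8-16, -0.63 and -0.53 in CHIR_11-16, 1.55 and 1.45 in WiBi_0-11 and 1.54 and 1.38 in WiBi_0-16. Both inhibitor-only groups were level with each other, and both agonist groups lay far below them, CHIR_8-16 lowest. Frat1 was 5.31-fold lower with agonist (log2 -2.41, SE 0.20, limma adjusted p = 0.033; probe at mm9 chr19:41906864-41906923), by a log2 of -2.52 on slide 2 and -2.30 on slide 3.

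Most genes of the neurogenic cascade, which turn progenitors into neurons, were higher with agonist. Of 20 measured members of the neurogenic cascade 8 rose and 0 fell, 18 were higher with agonist, and the median log2 difference was 0.55 (0.48 to 0.59 over 5 scalings). Of 25 pallial progenitor genes, which share several members with that list, 6 rose and 0 fell (median 0.59, and 0.35 with CHIR_11-16 as the only agonist group).

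Neurog2, the proneural factor of excitatory pallial progenitors, was at 2.31 and 2.44 in CHIR_8-16, 1.36 and 1.09 in CHIR_11-16, -0.39 and -1.15 in WiBi_0-11 and -0.82 and -1.54 in WiBi_0-16. Every agonist array was above every inhibitor-only array, and the difference was 6.85-fold (log2 2.78, SE 0.36, limma adjusted p = 0.036; probe at mm9 chr3:127337805-127337864). Neurod4, a later proneural gene, was not well above background on any inhibitor-only array and on 2 of 4 agonist arrays, so that its rise is bounded only at 1.12-fold (limma adjusted p = 0.044). Neurod1, which follows Neurog2 and is needed for dentate granule cells, rose by a log2 of 0.99 (SE 0.13, limma adjusted p = 0.037).

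Mfng, a glycosyltransferase that modifies Notch, rose by a log2 of 1.36 (limma adjusted p = 0.049) and Sstr2, a somatostatin receptor of intermediate progenitors and young neurons, by 1.22 (limma adjusted p = 0.038). The other called members, named after their values were seen, were the cell cycle exit gene Btg2 (log2 0.69), the stress-response gene Gadd45g (log2 1.18) and the zinc finger gene Insm1 (log2 0.67). Eomes, the marker of intermediate progenitors, had a log2 difference of 0.58 at an adjusted p of 0.068. In the Notch list 1 of 20 measured members rose, Mfng, and 0 fell, where 1.98% and 1.43% of all genes did.

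Otx1, a homeobox gene of cortical progenitors, was at -3.11 and -2.90 in CHIR_8-16, -4.26 and -3.97 in CHIR_11-16, -5.13 and -5.21 in WiBi_0-11 and -5.89 and -5.85 in WiBi_0-16. The 4 groups stood in an order without overlap, and 1 of 4 inhibitor-only arrays was well above background (log2 1.96, SE 0.36, limma adjusted p = 0.045). The difference was 3.89-fold as measured and 3.27-fold with dim arrays at their floor, and the log2 difference was 0.79 under normexp. Gli3, the repressor of hedgehog targets that the dorsal telencephalon needs, was at 2.90 and 2.41 in CHIR_8-16, 2.76 and 2.26 in CHIR_11-16, 1.61 and 1.37 in WiBi_0-11 and 1.13 and 1.21 in WiBi_0-16. It was 2.39-fold higher with agonist (log2 1.25, SE 0.15, limma adjusted p = 0.033), with no overlap between arms.

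Of 24 measured hippocampal genes 4 rose, Lef1, Fzd9, Neurod1 and Nfib, and 0 fell, with a median log2 difference of 0.40. That median rested on CHIR_8-16, since it was 0.74 with CHIR_8-16 as the only agonist group and 0.05 with CHIR_11-16, and 0.22 and 0.20 without CHIR_8-16 replicates 1 and 2. Nfib, a nuclear factor needed for hippocampal development, was 1.79-fold higher (log2 0.84, SE 0.16, limma adjusted p = 0.046). Prox1, which marks dentate granule cells, had a log2 difference of 0.53 (SE 0.12) at an adjusted p of 0.059, Zbtb20, a factor of hippocampal pyramidal neurons, 0.13 at 0.66, and Emx2, a dorsal homeobox gene, -0.05 at 0.91. Of 28 isocortical projection neuron genes 1 rose, Nfib, which stands on both lists, and 0 fell (median -0.03). Tbr1, Bcl11b and Fezf2, factors of deep-layer neurons, had log2 differences of -0.10, -0.21 and 0.30 and did not pass (adjusted p 0.82, 0.44 and 0.36). In the list of cortical hem, roof plate and choroid plexus genes 0 of 12 measured members were called by limma, with 2 whose arms did not overlap within slides, both higher. Of all genes 12.3% were apart and higher in this way, so nothing is read from that count.

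Several of the largest rises were in genes of more posterior regions. Of 19 measured diencephalon and hypothalamus genes 3 rose and 1 fell, with a median of 0.68 that was 1.12 without CHIR_8-16 replicate 1. Of 6 measured hindbrain and spinal HOX genes 2 rose and all 6 were higher, with a median of 1.01 that ran from 0.41 to 1.04 over 5 scalings and was 0.62 on slide 2 and 1.71 on slide 3. The other 16 HOX genes of the list had no probe that passed the filter. Hoxb4 and Hoxc4, the 2 that rose, passed it through agonist groups only. The counts and median of this list are therefore not independent of the filter, and nothing is read from them.

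Foxb1, a forkhead gene of the mammillary region and thalamus, was at -3.42 and -0.50 in CHIR_8-16, -1.43 and -2.19 in CHIR_11-16, -6.61 and -3.23 in WiBi_0-11 and -7.92 and -6.61 in WiBi_0-16. It was well above background on 1 of 4 inhibitor-only arrays, WiBi_0-11 on slide 3, which overlapped with the agonist arm across slides but not within its own slide. The log2 difference was 4.21 (SE 0.86, limma adjusted p = 0.049), which is 18.5-fold as measured and 8.80-fold with the 3 dim arrays at their floor.

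Olig3, a basic helix-loop-helix gene of thalamic, hindbrain and dorsal spinal progenitors, was at -2.49 and -0.08 in CHIR_8-16, -1.42 and -0.58 in CHIR_11-16, -5.00 and -4.73 in WiBi_0-11 and -5.34 and -5.41 in WiBi_0-16. The arms did not overlap, and 3 of 4 inhibitor-only arrays were well above background (15.8-fold, or 15.1-fold with the dim array at its floor, log2 3.98, SE 0.39, limma adjusted p = 0.033). Gbx2, a homeobox gene of the thalamus and anterior hindbrain, was at -2.74 and -0.89 in CHIR_8-16, -2.68 and -3.47 in CHIR_11-16, -4.63 and -5.46 in WiBi_0-11 and -5.41 and -5.26 in WiBi_0-16. It was 6.70-fold higher (log2 2.74, SE 0.53, limma adjusted p = 0.047), and 2 of 4 inhibitor-only arrays measured it above background (5.97-fold with the others at their floor).

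Hoxc4 and Hoxb4, which pattern the hindbrain and cervical spinal cord, were not well above background on any inhibitor-only array. Hoxc4 was at -5.35 and -3.96 in CHIR_8-16 and -4.44 and -3.0 in CHIR_11-16, at least 2.39-fold higher than without agonist (limma adjusted p = 0.045). Hoxb4 was well above background on 2 of 4 agonist arrays and at least 1.23-fold higher (limma adjusted p = 0.037). Both had higher signals in the shorter agonist group than in the longer on each slide. The log2 differences between the schedules did not pass (CHIR_8-16 minus CHIR_11-16 -0.94 and -1.05, limma adjusted p 0.36 and 0.29). For Hoxb4 the 2 arrays above background were those of CHIR_11-16, so its -1.05 sets a signal against background and its size is not measured.

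Lhx5, a LIM homeobox gene of the hypothalamus, thalamic eminence and Cajal-Retzius cells, fell by a log2 of 1.01 (SE 0.12, limma adjusted p = 0.033). In the list of midbrain and isthmus genes 0 of 22 measured members were called by limma, and 5 did not overlap within slides, 2 higher and 3 lower. Of all genes 22.8% did not overlap in this way, so nothing is read from that count.

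Of 30 axon guidance genes 3 rose and 1 fell, and the median was -0.04. Robo3, the receptor that lets commissural axons cross the midline, was at -0.11 and 0.58 in CHIR_8-16, 0.29 and -0.80 in CHIR_11-16, -3.0 and -2.31 in WiBi_0-11 and -2.58 and -2.35 in WiBi_0-16. The inhibitor-only arrays lay within 1 unit of each other, well below the agonist arrays (5.86-fold, log2 2.55, SE 0.31, limma adjusted p = 0.033). Cntn2 (TAG-1), an adhesion molecule of young long-range axons, was at -1.96 and -1.25 in CHIR_8-16, -2.56 and -2.49 in CHIR_11-16, -3.99 and -4.52 in WiBi_0-11 and -4.95 and -3.91 in WiBi_0-16. By this probe it was 4.84-fold higher (log2 2.27, SE 0.34, limma adjusted p = 0.038), and by a second one the log2 difference was 0.86. Epha3, an ephrin receptor, rose by a log2 of 0.58 (limma adjusted p = 0.045), and Slit3, a repellent ligand, fell by a log2 of 0.58 (limma adjusted p = 0.039).

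Of 14 measured genes of the oligodendrocyte lineage 2 fell, Olig1 and Gpr17, and 0 rose, and the median was -0.16 (-0.26 on slide 2). Olig1, a basic helix-loop-helix gene of ventral progenitors and oligodendrocyte precursors, was at -3.80 and -1.83 in CHIR_8-16, -1.29 and 0.07 in CHIR_11-16, 2.31 and 2.23 in WiBi_0-11 and 1.34 and 2.65 in WiBi_0-16. All agonist arrays were below all inhibitor-only arrays, CHIR_8-16 the lower of the pair on each slide (14.4-fold lower, log2 -3.85, SE 0.64, limma adjusted p = 0.040; probe at mm9 chr16:91271799-91271858).

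Gpr17, a receptor of maturing oligodendrocyte precursors, was at -6.85 and -6.15 in CHIR_8-16, -6.10 and -4.81 in CHIR_11-16, -2.84 and -2.45 in WiBi_0-11 and -3.43 and -1.43 in WiBi_0-16. It was well above background on 2 of 4 agonist arrays and was 10.9-fold lower with agonist as measured (log2 -3.44, SE 0.37, limma adjusted p = 0.033) and 7.35-fold lower with dim arrays at their floor. Olig2, the partner of Olig1, had arms that did not overlap and a log2 difference of -2.30 (SE 0.50), at an adjusted p of 0.053. Pdgfra, the growth factor receptor of the precursors, had a log2 difference of -2.50 at an adjusted p of 0.097. Mbp, which encodes a protein of myelin, had a log2 difference of -0.07.

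Genes of ventral telencephalon and GABAergic neurons were mostly lower. Of 23 measured members 4 fell, 0 rose and 19 were lower (19 under each scaling too), and the median log2 difference was -0.74, -0.27 on slide 2 and -1.05 on slide 3. Leaving out CHIR_8-16 replicate 2 brought it to -0.25. With CHIR_8-16 as the only agonist group it was -0.97, and with CHIR_11-16 as the only one it turned to 0.07. Npy, the neuropeptide Y gene of interneurons, was at -6.24 and -5.56 in CHIR_8-16, -4.23 and -3.22 in CHIR_11-16, -0.86 and -0.90 in WiBi_0-11 and -2.06 and -1.18 in WiBi_0-16. It was well above background on 2 of 4 agonist arrays and was 11.8-fold lower as measured (log2 -3.57, SE 0.62, limma adjusted p = 0.043) and 9.86-fold lower with dim arrays at their floor. Sst, the somatostatin gene, fell by a log2 of 1.38 (SE 0.27, limma adjusted p = 0.047), with arms that were apart within each slide and overlapped between slides. Calb2, which encodes calretinin, fell by a log2 of 1.08 (SE 0.18, limma adjusted p = 0.040) and Pbx3, a homeobox gene of the striatum and midbrain, by 0.75 (SE 0.16, limma adjusted p = 0.049).

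Of 29 pan-neuronal and synaptic genes 3 fell and 0 rose, 25 were lower (25 to 27 over 5 scalings), and the median was -0.31. Syn2, a synaptic vesicle protein, was at 3.66 and 2.85 in CHIR_8-16, 4.06 and 3.53 in CHIR_11-16, 4.65 and 4.09 in WiBi_0-11 and 4.71 and 4.04 in WiBi_0-16. The arms were apart on each slide (log2 -0.84, SE 0.17, limma adjusted p = 0.048). Stx1a, the syntaxin of the presynaptic membrane, and Sv2a, another vesicle protein, fell by log2 values of 0.60 and 0.56. Tubb3, the neuronal tubulin, had a log2 difference of 0.20 (adjusted p = 0.26), and its sign turned under normexp.

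The 25 proliferation genes were all higher with agonist, under each of the 5 scalings too, with a median log2 difference of 0.45 (0.75 on slide 2, 0.23 on slide 3 and 0.27 with CHIR_8-16 as the only agonist group), but only 1 passed, the mitotic cyclin Ccnb2 (log2 0.76, SE 0.13, limma adjusted p = 0.041). The summed signal of 4 proliferation markers ran from 4.23 to 5.01 (log2) over the agonist arrays and from 3.78 to 4.36 over the inhibitor-only arrays, and that of 10 neuronal markers from 8.30 to 8.46 and from 8.52 to 8.61. In bulk RNA, fewer cells of a type and less RNA per cell cannot be told apart. The part of these shifts in the neurogenic and synaptic results was not tested.

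The remaining large falls were in genes of other kinds. Agtr2, the type 2 angiotensin II receptor, was at -3.80 and -4.20 in WiBi_0-11 and -4.60 and -3.70 in WiBi_0-16. It was not well above background on any agonist array, so it was at least 3.1-fold lower there (limma adjusted p = 0.033). Mgp, a matrix protein that blocks calcification, was at -4.75 and -6.06 in CHIR_8-16, -5.23 and -5.65 in CHIR_11-16, -1.28 and -3.26 in WiBi_0-11 and -1.85 and -4.18 in WiBi_0-16. It was 6.87-fold lower with agonist, with 2 of 4 agonist arrays well above background (log2 -2.78, SE 0.34, limma adjusted p = 0.033), or 5.52-fold lower with the others at their floor.

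Of 6 mesenchyme markers 5 were lower with agonist and 0 were called, Col3a1 having the largest difference (log2 -1.72, adjusted p = 0.071). Their summed signal ran from 0.97 to 2.81 over the agonist arrays and from 2.39 to 3.67 over the others, and its part in the fall of Mgp was not tested. Lrrc17, a secreted leucine-rich repeat protein, Ubald1, Klf14, a transcription factor of the KLF family, Ppp3r2, a calcineurin subunit best known from testis, Vwa5b1 and Speer4a completed the 12 largest falls. Of these Ubald1 was well above background on all 8 arrays (3.45-fold lower, limma adjusted p = 0.033). Vwa5b1, Klf14, Lrrc17 and Ppp3r2 were so on 1 or 2 agonist arrays, and with the others at their floor they were 3.61-fold, 2.63-fold, 2.63-fold and 1.41-fold lower. Speer4a was well above background on 0 of 4 agonist arrays and at least 1.31-fold lower. It belongs to a family of near-identical copies that its probe may not tell apart.

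Some of the largest rises were in genes not known for forebrain neurons. Crybb1 and Cryge, lens crystallins, Fabp4, a fatty acid carrier of adipocytes and endothelium, Iapp, the islet hormone amylin, and Prokr1, a prokineticin receptor, were all dim. Fabp4 was at -4.98 and -4.05 in CHIR_8-16 and -2.71 and -2.10 in CHIR_11-16, and was not well above background on any inhibitor-only array (at least 3.95-fold, limma adjusted p = 0.041). Iapp was at least 3.56-fold and Cryge at least 1.84-fold higher. Crybb1 and Prokr1 were well above background on 1 of 4 inhibitor-only arrays each, and with the others at their floor they were 5.17-fold and 6.13-fold higher (log2 differences 3.81 and 2.96 as measured, 1.29 and 1.17 under normexp).

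S100b, a calcium-binding protein of astrocytes and other glia, was at -2.98 and -1.07 in CHIR_8-16, -1.26 and -1.56 in CHIR_11-16, -3.85 and -4.40 in WiBi_0-11 and -4.82 and -4.79 in WiBi_0-16. The arms did not overlap (6.71-fold, log2 2.75, SE 0.44, limma adjusted p = 0.040). Of 16 radial glia and astrocyte genes 3 rose, S100b, the gap junction gene Gja1 (log2 1.52, limma adjusted p = 0.040) and the matrix gene Tnc (log2 0.96, limma adjusted p = 0.033), and 0 fell. The median of that list was -0.07, and the astrocyte markers Gfap and Aqp4 had log2 differences of -0.19 and -0.11.

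Of 14 hedgehog pathway genes 3 rose and 1 fell. Dhh, a hedgehog ligand, rose 2.92-fold (log2 1.55, SE 0.23, limma adjusted p = 0.038), and the repressor Gli3 is described above. Smo, the signalling receptor, rose by a log2 of 0.89 by its brighter probe (limma adjusted p = 0.040), while its other probe gave -0.06. Gas1, a hedgehog co-receptor, fell by a log2 of 0.87 (limma adjusted p = 0.047), and its other probes gave -0.27 and -1.12.

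Of 22 FGF and EGF signalling genes 1 rose and 2 fell. Fgf15, a ligand of dorsal and posterior progenitors, was at 0.47 and 1.80 in CHIR_8-16, 0.70 and 1.30 in CHIR_11-16, -0.36 and -0.04 in WiBi_0-11 and -1.43 and -0.42 in WiBi_0-16. It was 3.1-fold higher (log2 1.63, SE 0.25, limma adjusted p = 0.039). Etv5 and Spry2, which FGF signalling commonly induces, fell by log2 values of 1.09 and 0.54 (limma adjusted p = 0.049 and 0.050).

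Of 19 neural crest and mesenchyme genes 2 rose, the crest factor Tfap2a (log2 1.65, SE 0.32) and the mesenchymal homeobox gene Prrx1 (log2 1.17, SE 0.22), and 0 fell. Their median of -0.24 had no stable sign, being 0.08 on slide 2, -0.46 on slide 3, and 0.04 and 0.05 without WiBi_0-11 replicates 1 and 2. Of 17 stress, apoptosis and hypoxia genes 2 rose, the immediate-early genes Atf3 (log2 1.38, SE 0.24) and Egr1 (log2 0.87, SE 0.18), and 13 were higher. Of 13 Cajal-Retzius genes 1 rose, the chemokine receptor Cxcr4 (log2 0.64), and 2 fell, Lhx5 and Calb2, while Reln had a log2 difference of -0.15. Among 19 neuropeptide genes Grp rose (log2 0.97) and Npy and Sst fell. Of 8 endoderm, epithelium and muscle genes the embryonic myosin Myh3 rose (log2 1.90, with 2 of 4 inhibitor-only arrays above background). In the lists of BMP pathway, pluripotency and blood, endothelium and microglia genes limma called 0 of 19, 0 of 11 and 0 of 8 measured members, with 4, 0 and 2 members whose arms did not overlap within slides. Arms were apart in this way for 22.8% of all genes, so nothing is read from these counts.

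**Figure D3:**
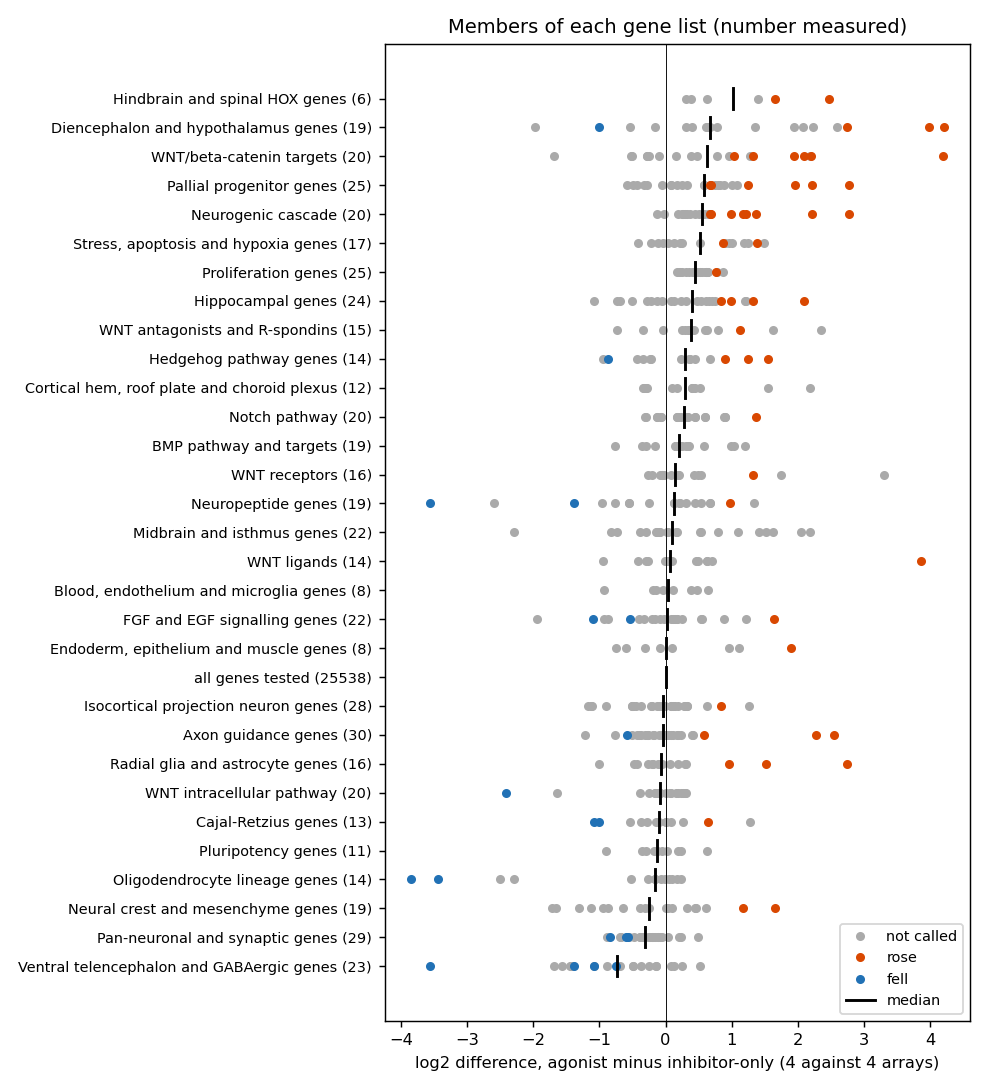
Log2 difference between agonist and inhibitor-only cultures for each measured member of 30 gene lists, ordered by the median (black bar), with members that rose in orange, those that fell in blue and the rest in grey. The HOX, diencephalon, WNT target, pallial progenitor and neurogenic lists have the highest medians (1.01 to 0.55) and the ventral telencephalon list the lowest (-0.74). The HOX median rests on 6 genes, of which Hoxb4 and Hoxc4 passed the filter through agonist groups only.

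Averaging the schedules hides differences between them for some genes. A limma contrast of CHIR_8-16 with CHIR_11-16 (2 against 2 arrays, spread pooled over the 4 groups) called 2 of 25538 genes (0.00783%), Sp8 and Ibsp, and a contrast of WiBi_0-16 with WiBi_0-11 called 3 (0.0117%), a pseudogene of Phf8 and 2 unnamed transcripts. None of these 5 was among the 869 genes, but the main fit counts a schedule difference as residual spread, which works against calling such genes. Sp8, a zinc finger gene of ventral and dorsomedial progenitors, is on the WNT target list and is named here after its value was seen. It was lower in CHIR_8-16 than in CHIR_11-16 by a log2 of -4.42 (limma adjusted p = 0.034). Its arms differed by a log2 of -1.69 without passing (limma adjusted p = 0.45).

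Egfr, the EGF receptor, was at -1.58 and -1.21 in CHIR_8-16 but at 1.61 and 1.63 in CHIR_11-16, 2.34 and 2.01 in WiBi_0-11 and 1.80 and 2.06 in WiBi_0-16. Gad1, a GABA-synthesising enzyme, was at -1.25 and -1.40 in CHIR_8-16, 0.82 and 1.44 in CHIR_11-16, 1.12 and 1.59 in WiBi_0-11 and 0.79 and 1.82 in WiBi_0-16. Dlx2, a homeobox gene of GABAergic progenitors, was at 0.52 and -0.67 in CHIR_8-16 and at 3.05 and 3.94 in CHIR_11-16, beside 2.72 and 3.90 in WiBi_0-11 and 2.58 and 3.42 in WiBi_0-16. For these genes CHIR_8-16 stood alone and CHIR_11-16 lay near or among the inhibitor-only arrays, and their arms differed without passing (log2 -1.94, -1.43 and -1.44, limma adjusted p 0.21, 0.26 and 0.45).

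The ligand Wnt7a had the same form (-1.77 and -1.54 in CHIR_8-16, against -0.22 to 0.41 on the other 6 arrays). Wnt8b, a ligand of the hem and hippocampal primordium, was at -0.46 and 1.77 in CHIR_8-16, -1.81 and -1.89 in CHIR_11-16 and -1.51 to -0.81 without agonist. The contrasts between the agonist schedules were -3.01, -2.46, -3.57, -1.71 and 2.51 for Egfr, Gad1, Dlx2, Wnt7a and Wnt8b, with adjusted p of 0.084, 0.12, 0.18, 0.097 and 0.32.

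**Figure D4:**
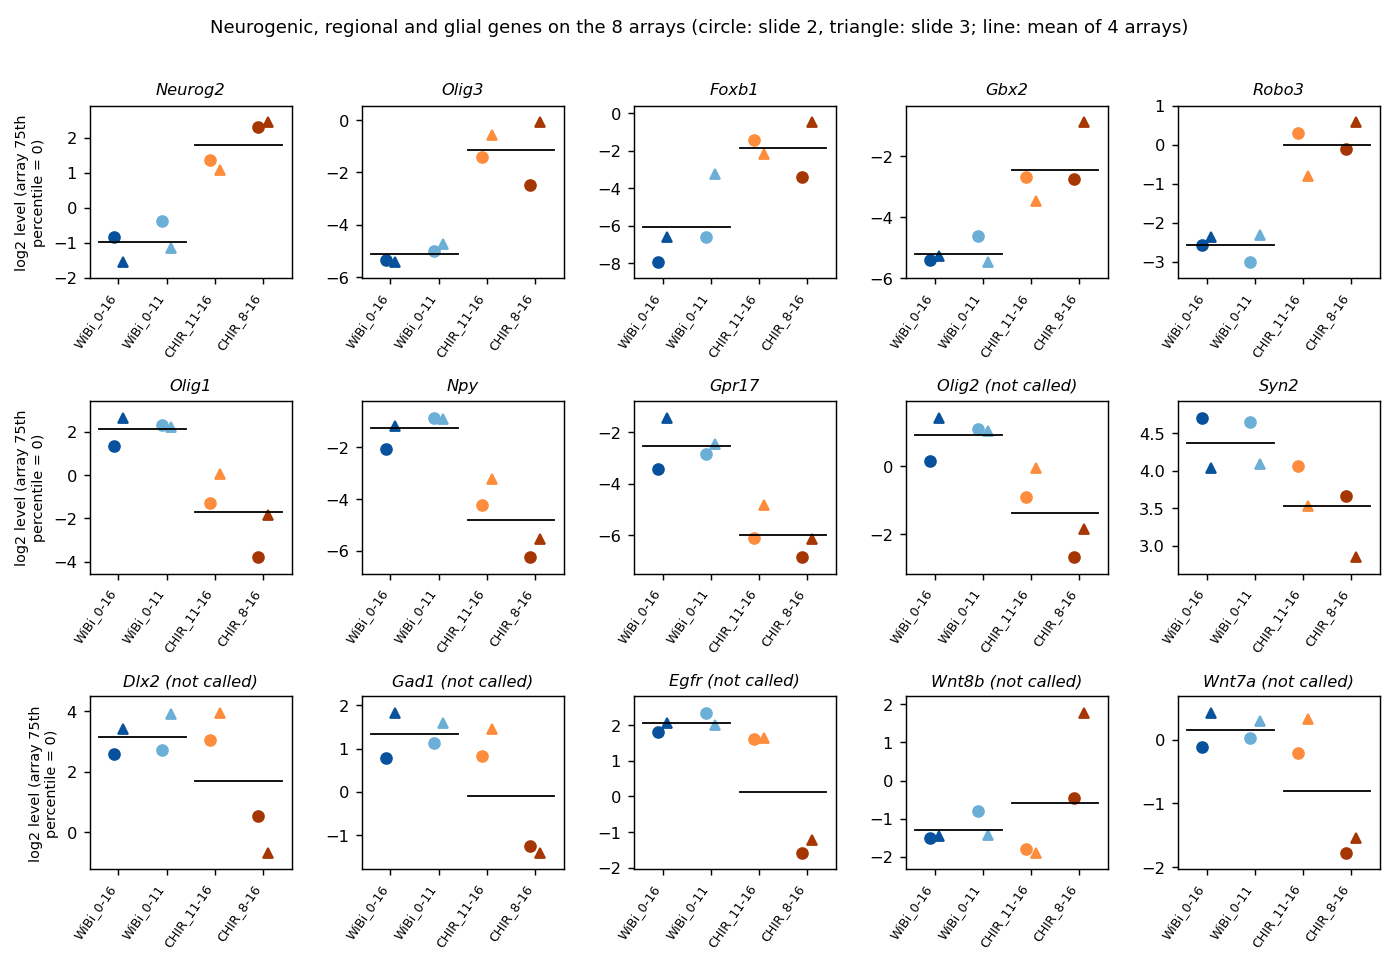
Log2 level of 15 neurogenic, regional and glial genes in the 4 culture groups; circles are slide 2, triangles slide 3 and lines the mean of the 4 arrays of an arm. In the first row every gene is higher in both agonist groups, in the second every gene is lower in both, and in the third CHIR_8-16 departs from the other 3 groups.

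Most called genes leaned 1 way between the schedules of an arm, though 0 of them passed either schedule contrast in limma. With 1 mean per arm, a large schedule difference widens the residual spread and makes a call less likely. That 0 is therefore largely set by how genes were called, and nothing is read from it. CHIR_8-16 had both longer agonist and shorter inhibitor treatment than CHIR_11-16, so these lengths cannot be told apart. Of the 505 genes that rose 340 (67.3%) were higher in CHIR_8-16 than in CHIR_11-16, where 55.4% of all genes were, and 422 (83.6%) were lower in WiBi_0-16 than in WiBi_0-11, where 49.3% of all genes were. Of the 364 genes that fell 259 (71.2%) were lower in CHIR_8-16 than in CHIR_11-16 (44.6% of all genes) and 225 (61.8%) were higher in WiBi_0-16 than in WiBi_0-11 (50.7% of all genes). The sizes were small, which the way of calling genes also favours. Over the genes that rose the median log2 difference between the agonist schedules was 0.07 and that between the inhibitor schedules -0.18, and over those that fell -0.11 and 0.05. Over all genes these medians were 0.039 and 0.005. The median rise was 0.96 between CHIR_8-16 and WiBi_0-16 and 0.68 between CHIR_11-16 and WiBi_0-11.

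The same probes on the E15 arrays show where these genes are expressed in the embryo, with 1 array per tissue and so no test. Of the genes that rose 71 of 477 measured (14.9%) were at least 2-fold higher in hippocampus than in cortex, where 4.78% of all genes were, and 14 (2.94%) were at least 2-fold lower (3.59% of all genes). Sp5 was at 1.25 in hippocampus and -4.85 in cortex, Wnt10a at -0.28 and -7.70, Lef1 at 3.15 and 0.64, Rnf43 at 0.10 and -4.20, and Neurod1 at 2.30 and -0.10. Other genes that rose were dim in both and higher elsewhere, such as Foxb1, at 1.38 in midbrain and not well above background in cortex or hippocampus, and Robo3, at -1.45 in midbrain and -2.45 in ventral telencephalon and likewise not above background in the other tissues. Hippocampus was also at least 2-fold higher for 36 of 347 genes that fell (10.4%), so that a share above the background is not particular to the genes that rose.

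The genes that fell leaned towards other tissues. Of those measured, 103 of 349 (29.5%) were at least 2-fold higher in ventral telencephalon than in cortex (6.43% of all genes) and 142 of 358 (39.7%) were so in midbrain (11.4% of all genes). Olig1 was at 2.31 in ventral telencephalon, 2.72 in midbrain and -0.10 in cortex, Gpr17 at 1.98, 1.93 and -0.23, Sst at 5.39, 4.79 and 2.61, and Pbx3 at 4.40, 4.72 and 1.15. Frat1 differed little between the tissues (1.71 to 2.35). Of the genes that rose 28 of 477 (5.87%) were at least 2-fold higher in ventral telencephalon than in cortex, and in midbrain 78 of 492 (15.9%) were at least 2-fold higher and 68 (13.8%) at least 2-fold lower (5.98% of all genes).

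**Figure D5:**
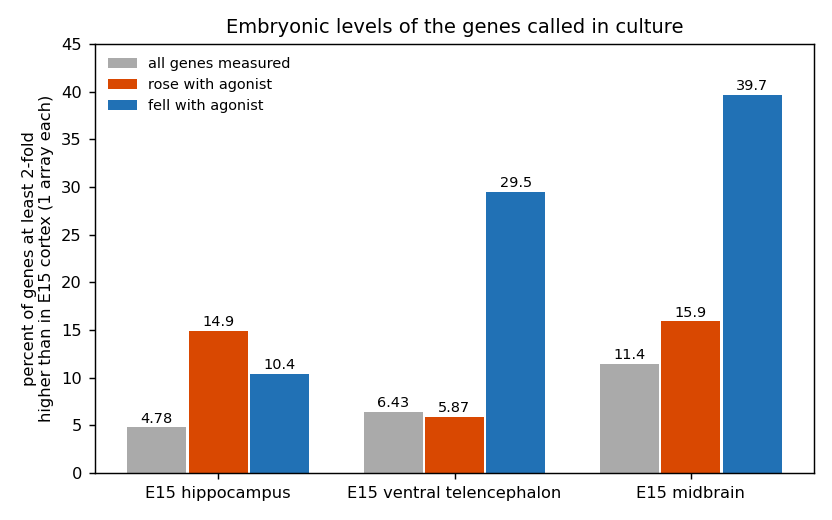
Percentage of genes at least 2-fold higher in E15 hippocampus, ventral telencephalon or midbrain than in E15 cortex (1 array each), for all genes measured (grey), genes that rose with agonist in culture (orange) and genes that fell (blue). Genes that fell reach 29.5% in ventral telencephalon and 39.7% in midbrain, and genes that rose reach 14.9% in hippocampus.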

How the data were processed

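Single-colour Agilent mouse arrays held Cy3-labelled cRNA of 8 cultures and 4 E15 tissues. Per the file headers, the deposited files hold 1 intensity per spot as Agilent Feature Extraction 10.7.3.1 wrote it, after background subtraction and detrending within the array. The submitters' processing notes name version 9.1 and limma. The authors' deposited series table holds log2 values, whose treatment of background is not given in the sources used here. It was used only as an alternative.

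From these files the log2 processed signal minus the array's 75th percentile was computed, outlier spots being dropped. Of 55681 probes 36430 were well above background on both arrays of a culture group and complete on all 8. The brightest probe stood for each of 25538 genes. Among passing probes 21090 were named through the accession in the culture files and 27 in the embryo files, 1203 by a current and 220 by an older symbol in RefSeq, and 13890 kept the name in the file. Probe positions are on mm9.

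The main fit was limma 3.58.1 (R 4.3.3; lmFit and eBayes, 2-sided), with 1 mean per arm and slide as a block, and was tested on simulated data. Arrays of the same slide deviated together (r 0.579 to 0.667 over all pairs of groups), so the replicate numbers pair the samples by slide. The median residual SD was 0.222 with the block and 0.321 without. No 2 arrays held identical values, and the number of arrays limits the precision. Normexp was run on median signals, since the culture files hold no mean signal.

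The members of the comparison and the 30 gene lists were chosen with earlier results of these data known. Named genes were the 12 largest rises and falls among called genes with an ordinary symbol and arms apart on both slides, up to 4 called members of each list, the 5 genes most like Axin2, and a fixed set of marker genes whatever their result.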

Additional observations from a re-analysis of the deposited data

Results flagged for a closer look

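In the 88 named genes, the 4 values of each arm were searched for an array far from the other 3. Of 176 such sets 4 held such an array, and chance alone marks about 1 in 20.

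Axin2 stood at 0.70 in CHIR_8-16 replicate 2, against -0.59 to -0.38 on the other agonist arrays, and Pou4f1 at 1.93 on the same array, against -0.12 to 0.19. Among the inhibitor-only cultures WiBi_0-11 replicate 1 was the highest for Tfap2a (-2.78, against -3.71 to -3.55) and for Wnt8b (-0.81, against -1.51 to -1.44). Leaving out CHIR_8-16 replicate 2 left the direction of Axin2 as it was, which its arms, apart on both slides, fixed in advance.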

How the results depend on the processing

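Alternatives moved the number of calls. Of the 869 genes all that were tested kept their sign under each of the 24 alternatives, except 1 without a filter on dim probes. For most alternatives that outcome was fixed in advance. All 869 had arms apart within both slides, so fits on fewer arrays or groups could not turn a sign. Fits that changed only the block, the group means or the prior kept the same difference. Direction could change only where signals or probes were treated otherwise. The 66 named genes that were called kept theirs under all 24, and of the 22 that were not called 7 changed sign in at least 1. Counts of genes whose arms did not overlap within slides stayed within 1.5 times in the 14 cases computed. Without the slide block (no replicate block) 2 genes passed, 0 higher and 2 lower. Scaling to the median gave 84 (54 higher, 30 lower), quantile normalization 601 (308 higher, 293 lower), normexp 1232 (644 higher, 588 lower), the authors' deposited values 544 (288 higher, 256 lower), and 1 mean per group with slide 1233 (711 higher, 522 lower). Without a filter on dim probes 0 passed in either direction, with 5571 at an unadjusted p below 0.05, and with probes well above background on all 8 arrays 1456 (864 higher, 592 lower). A trended and robust prior gave 2207 (1328 higher, 879 lower). Within slide 2 and within slide 3 limma called 0 genes each, with 2481 and 3088 at an unadjusted p below 0.05. With WiBi_0-11 as the only inhibitor-only group 4 passed (0 higher, 4 lower) and with WiBi_0-16 0 (5229 unadjusted). With CHIR_8-16 as the only agonist group 95 passed (37 higher, 58 lower) and with CHIR_11-16 3 (2 higher, 1 lower). Leaving out each array in turn gave 0 to 3 calls in all, 0 to 3 higher and 0 to 1 lower, and the unadjusted count ran from 4517 to 5460. A group left with 1 array was assumed to vary like the others. The cause of these shifts in count was not tested. Fits with fewer arrays have fewer residual degrees of freedom, and dim probes limit what can be measured in 34 genes that rose and 4 that fell, which have only a lower bound.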
